A study of Capra hircus with 10 samples.

Results

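The insulin-like growth factor (IGF) axis of the goat ovary was followed here through 10 genes, taken by name from the protein-coding part of the transcript table: the ligands IGF1 and IGF2, the receptors IGF1R and IGF2R, the binding proteins IGFBP2, IGFBP3, IGFBP4, IGFBP5 and IGFBP6, and the protease PAPPA. All 10 symbols were found, among 20587 protein-coding symbols, and they held 22 of the 43766 protein-coding transcripts. Their gene identifiers in the table are 100860838 for IGF1, 100861277 for IGF2, 100861165 for IGF1R, 100860744 for IGF2R, 102175172 for IGFBP2, 102174541 for IGFBP3, 100860812 for IGFBP4, 100860950 for IGFBP5, 102180462 for IGFBP6 and 102179947 for PAPPA. RNA came from whole ovaries of Anhui white goats obtained from a slaughterhouse, 5 in the luteal phase, when a corpus luteum secretes progesterone, and 5 in the follicular phase, when follicles grow toward ovulation. The ovaries were frozen after transport to the laboratory. Any treatment of the goats, their ages and the means by which the phase of each ovary was decided are not given in the sources used here. Each ovary gave 1 library from RNA depleted of ribosomal RNA, but nothing states whether all ovaries came from different goats, so p-values measure only the spread between these ovaries.

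IGF1 and IGF2 are secreted peptides, and both bind IGF1R, the receptor kinase that passes the signal into the cell. IGF2R carries no kinase and takes IGF2 to the lysosome. The binding proteins hold the ligands in tissue fluid and follicular fluid, and PAPPA, a secreted metalloprotease, releases IGF from IGFBP4 and IGFBP5. In ruminant ovaries the axis is known for raising the response of granulosa cells to follicle-stimulating hormone and for acting on steroid synthesis in the corpus luteum.

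Expression was measured as FPKM, a fragment count set relative to transcript length and to the mapped fragments of the library, and the FPKM of a gene's protein-coding transcripts were added. Differences are luteal minus follicular, on log2(FPKM + 0.1), and were tested two-sided with limma over the 15359 genes that reached an FPKM of 0.1 in 5 or more ovaries, with Benjamini-Hochberg adjustment over all of them. An adjusted p under 0.05 is a call. FPKM over all transcripts summed to between 452508 and 503276 in luteal ovaries and to between 492324 and 540124 in follicular ovaries. Calls were made for 43.7% of all genes, 15.9% higher in luteal ovaries and 27.8% higher in follicular ovaries, so that 36.3% of the calls were on the luteal side, against 48.8% after each ovary was shifted to a common median and 52.5% on the TPM scale. The median log2 fold change of all genes was -0.14 and rose to -0.05 after that shift, so changes of the members are also given relative to -0.14.

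In FPKM, IGF1R and IGFBP5 were lower in every luteal phase ovary than in any follicular phase ovary, which on the TPM scale held for IGFBP5 but not for IGF1R. IGFBP5 fell to 0.463 times its follicular level and IGF1R to 0.602 times. IGF1 was also lower in luteal ovaries, and IGFBP4 and PAPPA were higher, but these 3 calls were close to the threshold and their phases overlapped. IGF2, IGF2R, IGFBP2, IGFBP3 and IGFBP6 were not called. The 5 calls among 10 members (2 higher in luteal ovaries and 3 in follicular ovaries) stand beside 43.7% of all genes, and the 2 members whose phases did not overlap (both higher in follicular ovaries) stand beside 28.4% of all genes, 11.2% with the luteal phase higher and 17.2% with the follicular phase higher, so neither count sets the members apart from other genes. On the TPM scale 1 member was without overlap (24.2% of all genes), and with a common median 3 were (26.4%), the third being IGF2R, higher in luteal ovaries. The median log2 fold change of the members was -0.32.

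**Figure D1:**
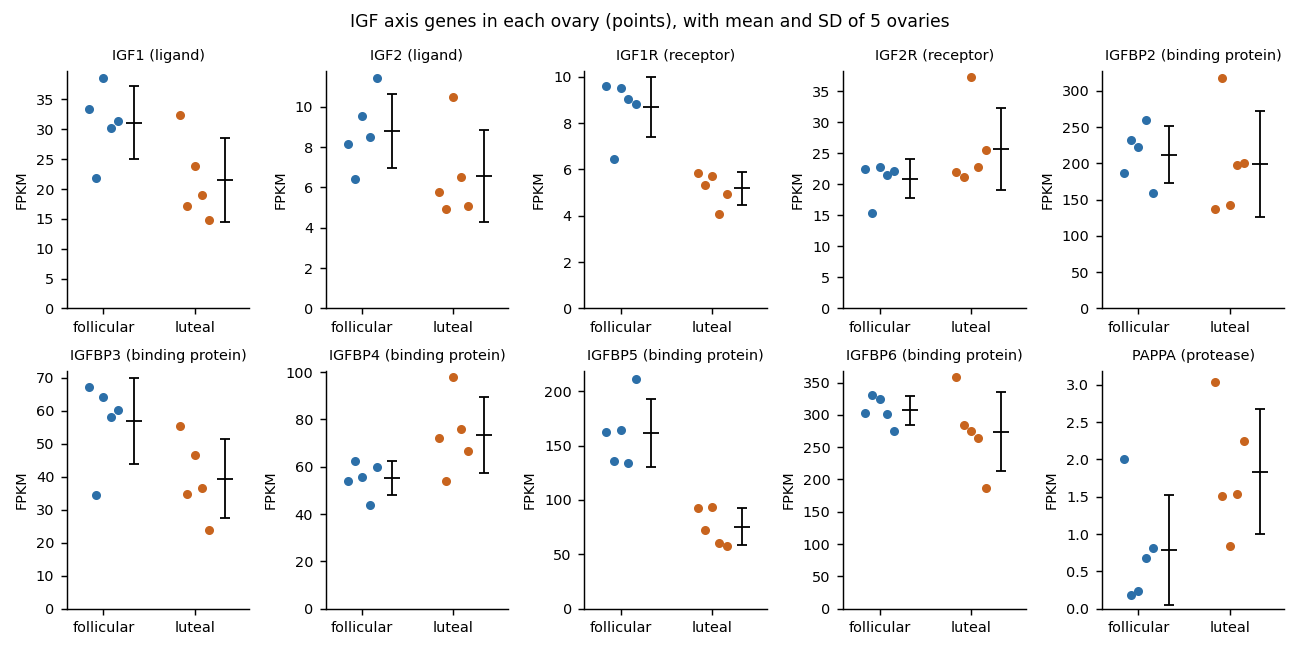
FPKM of the 10 IGF axis genes in each ovary, with 1 panel per gene, a linear axis from 0, 1 point per ovary (blue, follicular phase; orange, luteal phase) and the mean with its SD (n = 5) in black. For IGF1R and IGFBP5 all luteal points lie below all follicular points, while the points of the other 8 genes overlap between the phases.

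Among the ligands, IGF1 was the more abundant in every ovary. Its FPKM was 32.5, 17.1, 23.9, 19.1 and 14.8 in luteal phase ovaries 1 to 5 and 33.4, 21.9, 38.6, 30.3 and 31.4 in follicular phase ovaries 1 to 5. The mean was 21.5 ± 7.02 in luteal ovaries and 31.1 ± 6.08 in follicular ovaries (SD, n = 5 per phase), a log2 change of -0.57 (standard error 0.21, limma adjusted p = 0.0437) or -0.43 relative to the median of all genes. Luteal phase ovaries 1 and 3 lay inside the follicular range, and follicular phase ovaries 2, 4 and 5 lay inside the luteal range. The call was lost on the TPM scale (-0.47, adjusted p = 0.109) and with a common median for all ovaries (-0.48, adjusted p = 0.0719).

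IGF2 stayed under 12 FPKM throughout. Its FPKM was 5.75, 4.95, 10.5, 6.50 and 5.07 in luteal phase ovaries 1 to 5 and 8.17, 6.43, 9.53, 8.49 and 11.4 in follicular phase ovaries 1 to 5. With a log2 change of -0.45 (standard error 0.21, 95% CI -0.91 to 0.0021, limma adjusted p = 0.0971) it was not called. Luteal phase ovary 3 stood apart from the other luteal ovaries, which lay between 4.95 and 6.50, and without it the log2 fold change was -0.64 (adjusted p = 0.00917). Without follicular phase ovary 2, the lowest of its phase, it was -0.56 (adjusted p = 0.0482).

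For IGF1R, the receptor that signals, FPKM was 5.85, 5.31, 5.69, 4.10 and 4.93 in luteal phase ovaries 1 to 5 and 9.58, 6.45, 9.51, 9.05 and 8.82 in follicular phase ovaries 1 to 5. The phases did not overlap in FPKM, and the nearest approach was follicular phase ovary 2. In TPM this ovary, at 11.9, lay below luteal phase ovaries 1 and 3, at 12.3 and 12.1, so that the phases overlapped. The means were 5.18 ± 0.701 and 8.68 ± 1.29 (SD, n = 5 per phase), with a log2 change of -0.73 (standard error 0.13, limma adjusted p = 0.00134) or -0.59 relative to the median of all genes. The call held under all alternatives tried, with adjusted p between 0.000288 and 0.00736. The table holds 1 transcript of IGF1R, XM_018065947.1.

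IGF2R, the clearance receptor, had an FPKM of 21.9, 21.3, 37.2, 22.8 and 25.5 in luteal phase ovaries 1 to 5 and of 22.5, 15.3, 22.8, 21.4 and 22.2 in follicular phase ovaries 1 to 5. All ovaries lay between 21.3 and 25.5 except luteal phase ovary 3, above them, and follicular phase ovary 2, below. The log2 fold change was 0.28 (standard error 0.16, 95% CI -0.07 to 0.64, limma adjusted p = 0.170), and it was not called. Without luteal phase ovary 3 it was 0.14 and without follicular phase ovary 2 it was 0.18 (limma adjusted p = 0.362 and 0.341).

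The binding proteins were the most abundant transcripts of the axis, and IGFBP5 was the one with the largest difference. IGFBP5, which binds to extracellular matrix as well as to IGF, had an FPKM of 92.2, 72.6, 93.5, 60.4 and 57.8 in luteal phase ovaries 1 to 5 and of 163, 136, 164, 134 and 211 in follicular phase ovaries 1 to 5. No luteal ovary exceeded 93.5 and no follicular ovary was under 134. The means were 75.3 ± 17.0 and 162 ± 31.0 (SD, n = 5 per phase), a log2 change of -1.11 (standard error 0.16, 95% CI -1.47 to -0.75, limma adjusted p = 0.000378), or -0.97 relative to the median of all genes. Under all alternatives the adjusted p stayed between 0.000368 and 0.00184.

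IGFBP4, a substrate of PAPPA, went the other way. Its FPKM was 72.1, 54.1, 97.8, 76.1 and 66.7 in luteal phase ovaries 1 to 5 and 53.9, 62.6, 55.5, 44.0 and 60.0 in follicular phase ovaries 1 to 5. Luteal phase ovary 2, at 54.1, was the only luteal ovary inside the follicular range. The log2 fold change was 0.39 (standard error 0.14, limma adjusted p = 0.0456) or 0.53 relative to the median of all genes. After quantile normalization it was 0.33 and no longer called (adjusted p = 0.111).

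IGFBP3, the main carrier of IGF in blood, had an FPKM of 55.4, 34.8, 46.7, 36.5 and 23.9 in luteal phase ovaries 1 to 5 and of 67.2, 34.5, 64.2, 58.2 and 60.3 in follicular phase ovaries 1 to 5. It was not called (log2 fold change -0.54, standard error 0.23, limma adjusted p = 0.0746). Follicular phase ovary 2 lay far below the other follicular ovaries, at 34.5 against 58.2 to 67.2, and without it the log2 fold change was -0.71 (adjusted p = 0.0149). It was also called without luteal phase ovary 1 (-0.68, adjusted p = 0.0314).

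IGFBP2 and IGFBP6, which both prefer IGF2 over IGF1 as ligand, were the most abundant members in each phase, and neither was called. IGFBP6 ranged from 187 to 359 in luteal ovaries and from 275 to 331 in follicular ovaries, with means of 274 ± 61.3 and 307 ± 22.1 (SD, n = 5 per phase; log2 fold change -0.19, 95% CI -0.51 to 0.12, limma adjusted p = 0.300). IGFBP2 ranged from 137 to 318 and from 159 to 259, with means of 199 ± 72.8 and 212 ± 39.4 (SD, n = 5 per phase; log2 fold change -0.14, 95% CI -0.61 to 0.34, limma adjusted p = 0.632). Over single omissions the log2 fold change ran from -0.30 (without luteal phase ovary 1) to -0.06 (without luteal phase ovary 5) for IGFBP6 and from -0.32 (without luteal phase ovary 2) to -0.02 (without luteal phase ovary 1) for IGFBP2. The highest IGFBP2 of all ovaries, 318, was in luteal phase ovary 2, which also had the lowest luteal IGFBP4. IGFBP2 and IGFBP5 are adjacent genes in RefSeq (assembly ARS1.2), and these neighbours had log2 fold changes of -0.14 and -1.11.

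PAPPA was the least abundant member, and its ovaries differed most from each other within a phase. Its FPKM was 3.04, 1.51, 0.835, 1.54 and 2.24 in luteal phase ovaries 1 to 5 and 2.01, 0.185, 0.235, 0.677 and 0.817 in follicular phase ovaries 1 to 5. Follicular phase ovary 1, at 2.01, lay above 3 of the 5 luteal ovaries. The log2 fold change was 1.40 (standard error 0.52, 95% CI 0.27 to 2.53, limma adjusted p = 0.0462), on a scale that depends on the pseudocount at such low FPKM: with 1 in place of 0.1 it was 0.70 and not called (adjusted p = 0.0513). Leaving out single ovaries removed the call for PAPPA in 8 of 10 fits, for IGFBP4 in 8 and for IGF1 in 7, while IGF1R and IGFBP5 were called in all 10. The luteal ovaries 2, 4 and 5 and the follicular ovaries 1, 3, 4 and 5 were those whose absence took the count of called members from 5 to 2 or 3. Luteal phase ovary 1, the highest luteal ovary for IGF1, IGF1R, IGFBP3, IGFBP6 and PAPPA, was also the luteal ovary with the largest summed FPKM of the markers of granulosa cells (1212), theca cells (188), luteal cells (8674) and smooth muscle (1053). Of these markers it was the highest luteal ovary for 7 of 12, 3 of 5, 2 of 9 and 5 of 7. The part of this in the members' levels was not tested.

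**Figure D2:**
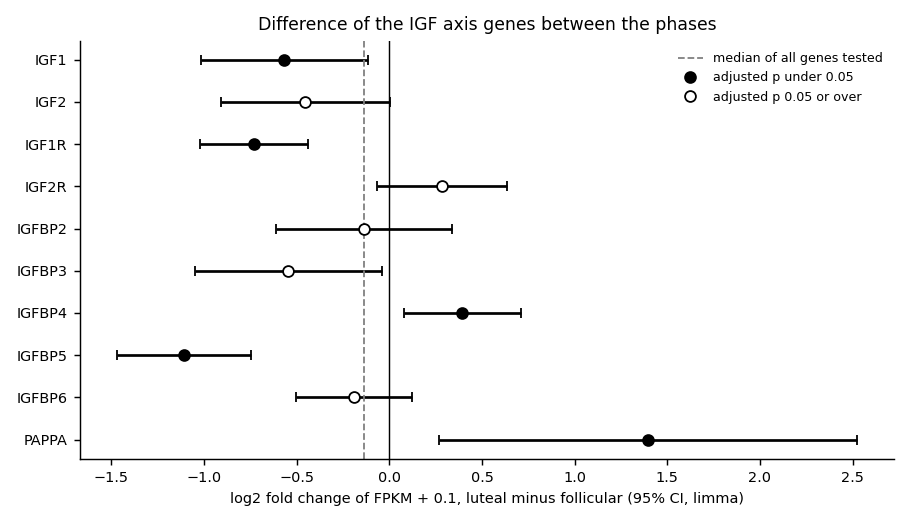
Log2 fold change of FPKM + 0.1 (luteal minus follicular, horizontal axis) of the 10 IGF axis genes with its 95% confidence interval from limma, where filled points have an adjusted p under 0.05. The dashed line marks the median of all genes tested, -0.14; IGF1R and IGFBP5 have intervals wholly to its left, and IGF2R, IGFBP4 and PAPPA wholly to its right.

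Follicular phase ovary 2 was the lowest ovary of its phase for 6 of the 10 members, namely IGF1, IGF2, IGF1R, IGF2R, IGFBP3 and PAPPA, and the highest for IGFBP4 and IGFBP6. It also had the largest summed FPKM of all ovaries, 540124. Among follicular ovaries it had the lowest sums of the stroma (2758), endothelium (158) and blood and immune markers (30.2) and the highest of the theca cell (253) and smooth muscle markers (1673). It was lowest for 7 of 10 stroma, 3 of 9 endothelium and 4 of 7 blood and immune markers. For 2 endothelium markers it was highest, while follicular phase ovary 4, with a sum of 159, was lowest for 5. Follicular phase ovary 2 was highest for 5 of 7 smooth muscle and 2 of 5 theca cell markers, and follicular phase ovary 1 for 2 other theca cell markers. Luteal phase ovary 3, apart for IGF2 and IGF2R, had the highest luteal sums of the stroma (5783) and oocyte markers (20.3) and the lowest of the granulosa cell (337), luteal cell (6367) and blood and immune markers (51.5). It was highest for 8 of 10 stroma and 8 of 9 oocyte markers, and lowest for 8 of 12 granulosa cell and 7 of 9 luteal cell markers. For blood and immune markers it was lowest for 1 of 7, and luteal phase ovary 1, with a sum of 51.8, for 3 of 7. The part of these markers in the members' levels was not tested. Without follicular phase ovary 2, calls over all genes rose from 6711 to 7008, the largest count of the 10 omissions, and 6 members were called: IGF1, IGF2, IGF1R, IGFBP3 and IGFBP5 lower in luteal ovaries and IGFBP4 higher.

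Added together, IGFBP2 to IGFBP6 reached 716, 763, 656, 635 and 537 FPKM in luteal phase ovaries 1 to 5 and 774, 796, 831, 797 and 764 in follicular phase ovaries 1 to 5. In FPKM luteal phase ovary 2 (763) nearly met follicular phase ovary 5 (764), and in TPM, as with a common median, the sums of the phases overlapped. IGFBP6 made up 41.1 ± 5.87% of the sum in luteal ovaries and 38.7 ± 2.05% in follicular ovaries, and IGFBP2 30.3 ± 9.73% and 26.7 ± 4.51% (SD, n = 5 per phase). IGFBP5 took 11.4 ± 2.12% of the luteal sum and 20.5 ± 4.37% of the follicular sum, with ranges of 9.50 to 14.3% and 16.8 to 27.6%. The share of IGFBP4 was 11.3 ± 2.92% and 6.98 ± 0.969%, and that of IGFBP3 was 5.92 ± 1.48% and 7.19 ± 1.67%. Luteal ovaries therefore held about as much IGFBP4 as IGFBP5, while IGFBP5 exceeded IGFBP4 in all follicular ovaries. IGF1 and IGF2 together summed to between 19.8 and 38.2 FPKM in luteal ovaries and to between 28.3 and 48.2 in follicular ovaries. Binding protein transcripts exceeded ligand transcripts by a factor of 18.7 to 34.6 in luteal ovaries and of 17.2 to 28.1 in follicular ovaries. These sums were not tested.

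**Figure D3:**
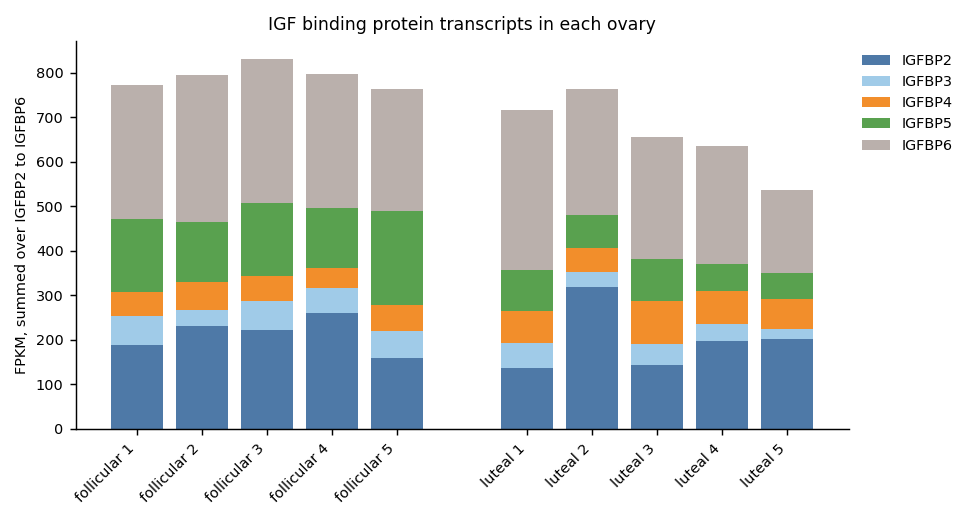
Stacked FPKM of IGFBP2 to IGFBP6 (vertical axis, from 0) in each of the 10 ovaries, 1 bar per ovary. The green IGFBP5 segment spans 134 to 211 FPKM in the follicular bars and 57.8 to 93.5 in the luteal bars, and IGFBP6 and IGFBP2 form most of every bar.

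Pairs of ligands, of receptors and of binding proteins, and PAPPA with its substrate IGFBP4, were compared as ratios within an ovary, which a common scaling of the library leaves almost unchanged. The 5 ratios were tested by exact permutation of the ovaries, two-sided, with Benjamini-Hochberg adjustment over the 5, and 0.00794 is the smallest p that 5 ovaries against 5 allow. The ratio of IGF1R to IGF2R was 0.267, 0.250, 0.153, 0.180 and 0.193 in luteal phase ovaries 1 to 5 and 0.425, 0.421, 0.417, 0.422 and 0.397 in follicular phase ovaries 1 to 5. All follicular ovaries lay within a narrow band, also ovary 2, which was low for both receptors, and all luteal ovaries lay below it. The mean log2 ratio was -2.27 ± 0.33 in luteal ovaries and -1.25 ± 0.04 in follicular ovaries (SD, n = 5 per phase), a difference of -1.02 (exact permutation p = 0.00794, adjusted p = 0.0397).

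The ratio of IGFBP5 to IGFBP3 was also lower in luteal ovaries. It ran from 1.65 to 2.41 in luteal ovaries and from 2.30 to 3.94 in follicular ovaries, a log2 difference of -0.56 (exact permutation p = 0.0159, adjusted p = 0.0397). The phases overlapped slightly, and the call was lost in 8 of the 10 tests that left out an ovary, with adjusted permutation p up to 0.119. The ratios of PAPPA to IGFBP4, of IGFBP2 to IGFBP4 and of IGF2 to IGF1 were not called. Their log2 differences were 1.00, -0.53 and 0.11 (adjusted exact permutation p = 0.248, 0.248 and 0.643). With a pseudocount of 1 the difference for PAPPA to IGFBP4 was 0.31, and without follicular phase ovary 2 it was 0.64. For IGFBP2 to IGFBP4 it was -0.82 without luteal phase ovary 2 and -0.32 without luteal phase ovary 3, and neither ratio was called under any alternative. For IGF2 to IGF1 the ratio was between 0.177 and 0.439 in luteal ovaries and between 0.244 and 0.364 in follicular ovaries, and the sign of its difference rested on luteal phase ovary 3, without which it was -0.02.

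**Figure D4:**
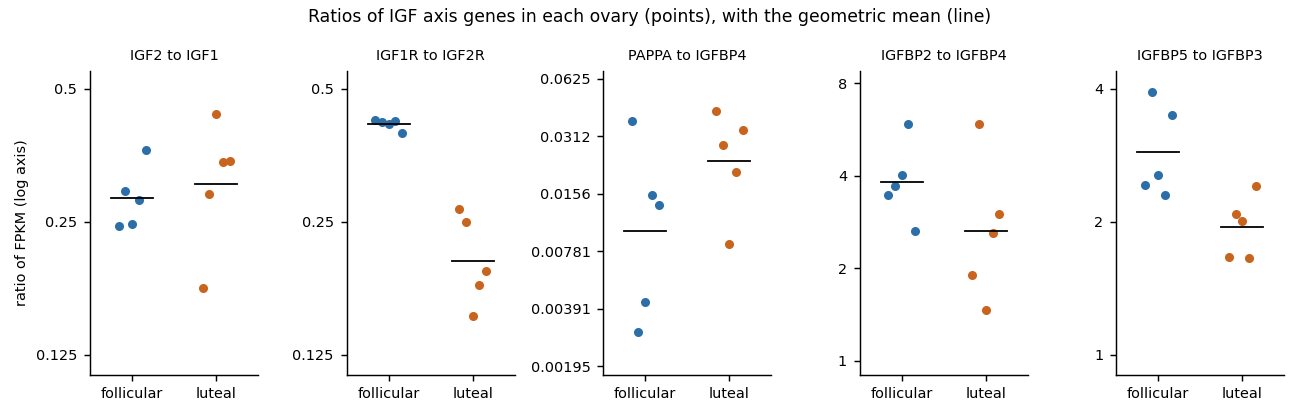
Ratio of FPKM of 5 pairs of IGF axis genes in each ovary (points; log axis) with the geometric mean of each phase (line). The 5 follicular ovaries sit between 0.397 and 0.425 for IGF1R to IGF2R and the 5 luteal ovaries between 0.153 and 0.267, while the ranges of the other 4 ratios overlap.

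In the follicular phase the order of the mean levels, which FPKM allows to compare between genes, was IGFBP6, IGFBP2, IGFBP5, IGFBP3, IGFBP4, IGF1, IGF2R, IGF2, IGF1R and PAPPA. All 5 follicular ovaries kept this order for IGFBP6 over IGFBP2, IGFBP5 over IGFBP3, IGFBP4 over IGF1, IGF1 over IGF2R, IGF2R over IGF2 and IGF1R over PAPPA, and 4 of 5 for IGFBP2 over IGFBP5 and IGFBP3 over IGFBP4. IGF2 and IGF1R, at 8.81 and 8.68, could not be ranked, since 2 of 5 ovaries had IGF2 higher. In the luteal phase IGFBP5 and IGFBP4 stood at 75.3 and 73.4, with IGFBP5 higher in 2 of 5 ovaries, and IGFBP3 followed IGFBP4 at 39.5 in 5 of 5. IGF2R, at 25.8, came before IGF1, at 21.5, in 4 of 5 luteal ovaries, the reverse of their order in follicular ovaries. The ranges of IGF2R and IGF1 overlapped in each phase.

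IGF1, IGF2 and IGFBP5 had several transcripts. In a fit over all 32842 transcripts that passed the same filter, 4 of the 22 member transcripts were called, 1 of IGF1R and 3 of IGFBP5, all lower in luteal ovaries, where 17.3% of all transcripts were called, 7.47% higher in luteal and 9.82% higher in follicular ovaries. The main IGFBP5 transcript, XM_018054265.1, was at 65.4 ± 14.1 FPKM in luteal ovaries and 139 ± 26.9 in follicular ovaries (SD, n = 5 per phase; log2 fold change -1.09, limma adjusted p = 0.00182). NM_001285566.1 went from 20.8 in follicular ovaries to 9.11 (log2 fold change -1.23, limma adjusted p = 0.00564) and XM_018054254.1 from 1.83 to 0.669 (log2 fold change -1.32, limma adjusted p = 0.00813). Luteal and follicular ovaries were apart for these 3 transcripts, as for 15.3% of all transcripts (6.63% luteal higher, 8.62% follicular higher). The main transcript held 87.0 ± 1.74% of the gene in luteal ovaries and 85.9 ± 0.942% in follicular ovaries. The fourth, XM_018054247.1, was at 0.102 and 0.118 FPKM and was not called (limma adjusted p = 0.718).

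IGF1 was spread over 9 transcripts, and none was called. XM_005680537.3 held 52.0 ± 9.54% of IGF1 in luteal ovaries and 52.2 ± 5.63% in follicular ovaries (SD, n = 5 per phase), and XM_005680531.3 held 30.7 ± 2.41% and 30.7 ± 1.49%. Their log2 fold changes, -0.58 and -0.56 (limma adjusted p = 0.191 and 0.0798), were near that of the gene. XM_005680539.3 was listed at 0 in 4 of 10 ovaries and between 1.75 and 3.14 in the others, and XM_005680538.3 was listed at 0 in luteal phase ovary 2 alone. Of IGF2, NM_001287041.1 held 95.6 ± 2.85% in luteal ovaries and 93.2 ± 5.03% in follicular ovaries.

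To place each member among all genes, the gene with the smallest root mean square difference from it was taken over the 10 ovaries, after log2(FPKM + 0.1) of each gene was centred on its own mean. IGF1 and IGFBP3 were each other's nearest gene, with a difference of 0.13 where the profile of IGF1 itself had a root mean square of 0.44 and that of IGFBP3 of 0.47. IGF1R was nearest to SIMC1, at 0.06, and IGFBP5 to VOPP1, at 0.12. IGF2R was nearest to LAMA4, a laminin chain of vessel and muscle basement membranes, at 0.10, and IGFBP4 to UVRAG, which takes part in autophagy, at 0.11. IGF2 was nearest to ARMC2, at 0.12, IGFBP6 to TBX6, at 0.09, and IGFBP2 to PITX1, at 0.19. The profiles of IGF2, IGFBP6 and IGFBP2 themselves had root mean squares of 0.40, 0.24 and 0.36. TBX6 had a mean FPKM of 0.171 in luteal and 0.222 in follicular ovaries, and PITX1 of 0.711 and 0.772. At such low FPKM a profile depends on the pseudocount. For PAPPA the nearest gene, CALB2, a calcium-binding protein, was at 0.44, the widest of these distances. These are descriptions over 10 ovaries.

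A wider list of 16 genes holds further regulators of IGF, of which 13 passed the filter. Of these, 3 were higher in luteal ovaries and 3 in follicular ovaries, a share of 46.2% beside 43.7% of all genes, with a median log2 fold change of 0.04. STC2, a secreted inhibitor of PAPPA, was at 1.95 ± 0.201 FPKM in luteal ovaries and 0.486 ± 0.108 in follicular ovaries (SD, n = 5 per phase; log2 fold change 1.82, limma adjusted p = 9.99e-06). HTRA1, a serine protease that can cleave IGFBP5, was at 126 ± 16.1 and 71.8 ± 6.14 (log2 fold change 0.80, limma adjusted p = 0.000111). ADAM12, a metalloprotease that can cleave IGFBP3 and IGFBP5, was at 6.32 ± 1.37 and 2.98 ± 0.50 (log2 fold change 1.05, limma adjusted p = 0.000655). These 3 genes were named by a rule that required phases without overlap. Of the 13 tested genes, 3 were without overlap with the luteal phase higher and 1 with the follicular phase higher. Over all genes these shares were 11.2% and 17.2%.

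INSR, the insulin receptor, which can pair with IGF1R in hybrid receptors, was lower in luteal ovaries, at 21.6 ± 1.73 against 35.8 ± 3.35 (log2 fold change -0.72, standard error 0.08, limma adjusted p = 6.46e-05). Its highest luteal ovary was at 23.5 and its lowest follicular ovary at 32.8. The log2 fold change was close to that of IGF1R, -0.73. The other calls of the list, named after their values were seen, were IGFBP1 and INSRR, both lower in luteal ovaries with overlapping phases (log2 fold change -1.63 and -0.92, limma adjusted p = 0.0250 and 0.0400), and neither had a mean above 1 FPKM. The call was lost in 14 of 19 alternatives for INSRR and in 5 of 18 for IGFBP1. Of the genes not called, also chosen after their values were seen, IGFBP7, a relative that binds IGF weakly, was more abundant than any member, at 469 ± 113 and 378 ± 42.9, and was not called (limma adjusted p = 0.143). STC1, the other inhibitor of PAPPA, was at 11.1 ± 4.64 and 13.1 ± 4.27 (limma adjusted p = 0.457).

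Growth hormone signalling, which drives IGF1 transcription in liver, was represented by 9 genes, of which 8 were tested. In the luteal phase 4 were higher and 1 was lower, 62.5% beside 43.7% of all genes, with a median log2 fold change of 0.82. GHR, the growth hormone receptor, was at 29.1, 22.4, 28.0, 31.8 and 33.2 FPKM in luteal phase ovaries 1 to 5 and at 11.7, 7.72, 12.3, 7.33 and 12.1 in follicular phase ovaries 1 to 5. Every luteal ovary was above every follicular ovary (log2 fold change 1.51, standard error 0.17, limma adjusted p = 6.02e-05), in the direction opposite to IGF1. Absence of overlap was part of the rule that named GHR, SOCS3 and STAT5B. Of the 8 tested genes, 2 were without overlap with the luteal phase higher and 1 with the follicular phase higher, beside 11.2% and 17.2% of all genes. SOCS3, a feedback inhibitor of cytokine signalling, was at 51.9 ± 11.5 and 15.3 ± 8.24 (log2 fold change 1.89, limma adjusted p = 0.000766). The feedback inhibitors SOCS1 and CISH, named after their values were seen, were higher too, with overlapping phases (log2 fold change 1.07 and 1.06, limma adjusted p = 0.00557 and 0.00629). SOCS2, an inhibitor of the growth hormone receptor also named after its values were seen, was not called (0.59, limma adjusted p = 0.0908), and its highest level of all ovaries, 28.8 FPKM, was in follicular phase ovary 2, without which it was called (0.86, adjusted p = 0.00131). STAT5B, the transcription factor through which the growth hormone receptor acts on IGF1, was lower, at 7.87 ± 1.11 against 11.9 ± 1.01 (log2 fold change -0.60, limma adjusted p = 0.00126).

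Of 36 adaptors and PI3K, AKT and mTOR pathway genes downstream of IGF1R, 3 were higher in luteal ovaries, 10 were lower and 23 were not called. That is 36.1% beside 43.7% of all genes, with a median log2 change of -0.11. GRB10, an adaptor that restrains the insulin and IGF receptors, was at 14.4 ± 3.73 in luteal ovaries and 4.95 ± 0.588 in follicular ovaries (log2 fold change 1.48, limma adjusted p = 9.20e-05). EIF4EBP1, the translation repressor that mTOR inactivates, was at 123 ± 17.9 and 77.3 ± 6.82 (log2 fold change 0.66, limma adjusted p = 0.000607). PIK3R3, a regulatory subunit of PI3K, was higher in luteal ovaries (log2 fold change 0.58, limma adjusted p = 0.00291), whereas PIK3R1, the most abundant regulatory subunit on the list, was lower (-0.62, limma adjusted p = 0.00208).

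IRS2, a docking protein of both receptors, fell from 4.77 ± 0.948 in follicular ovaries to 2.44 ± 1.05 (log2 fold change -1.03, limma adjusted p = 0.0133), while IRS1, named after its values were seen, was at 9.11 and 9.88 and was not called (limma adjusted p = 0.457). DEPTOR, an inhibitor of mTOR, fell from 4.68 ± 1.13 to 2.69 ± 0.365 (log2 fold change -0.76, limma adjusted p = 0.00468). The rule that named GRB10, EIF4EBP1, PIK3R3, PIK3R1, IRS2 and DEPTOR required phases without overlap in FPKM, but in TPM the ranges of PIK3R1, IRS2 and DEPTOR overlapped. Of the 36 genes, 3 were without overlap in FPKM with the luteal phase higher and 5 with the follicular phase higher. Over all genes these shares were 11.2% and 17.2%.

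**Figure D5:**
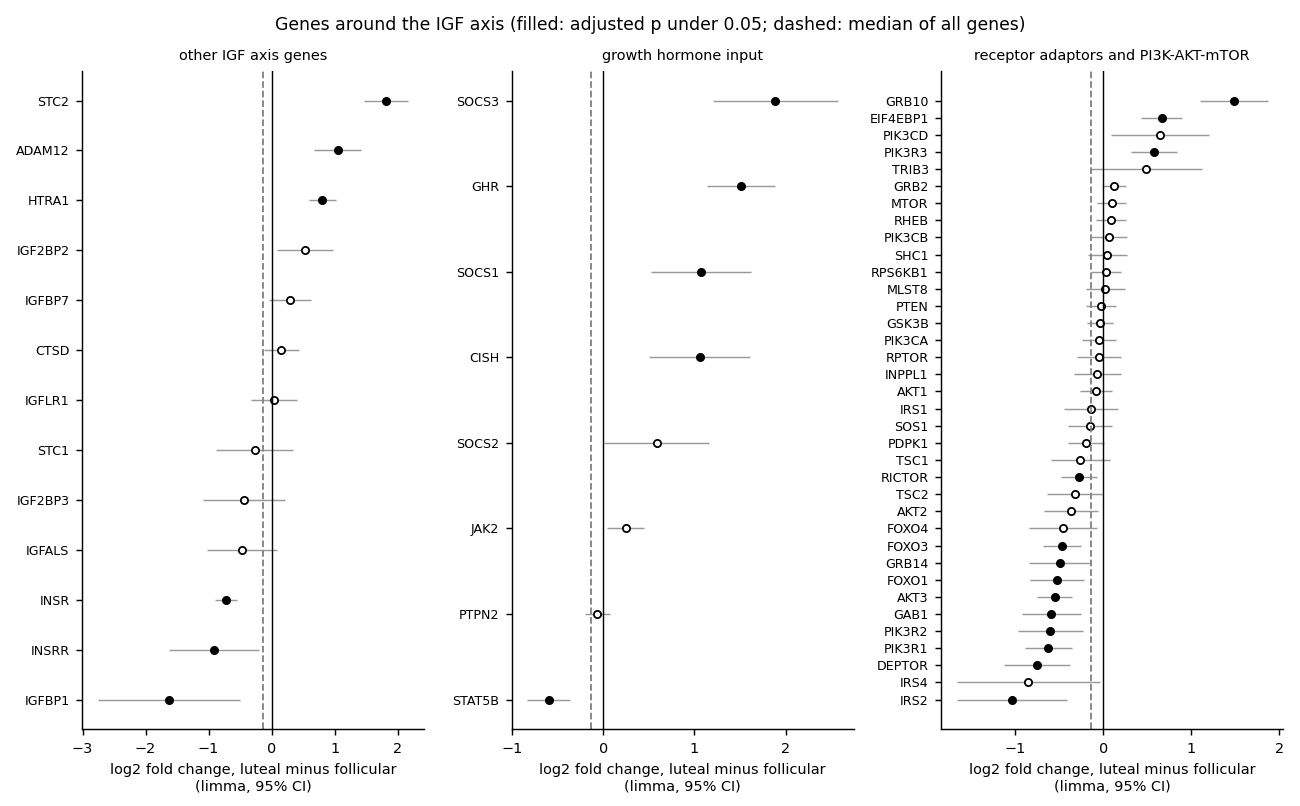
Log2 fold change (luteal minus follicular, horizontal axis) with 95% confidence interval from limma for tested genes of 3 lists around the IGF axis, where filled points have an adjusted p under 0.05 and the dashed line is the median of all genes, -0.14. The 8 growth hormone genes run from STAT5B (-0.60) to SOCS3 (1.89), and GRB10 (1.48) stands to the right of the other 35 downstream genes.

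Marker genes of several cell types differed between the phases, and in whole ovaries a lower level can mean fewer cells of a type or less RNA per cell, which cannot be told apart. All 8 marker lists were detected, with every listed gene in the table above 0 in all 10 ovaries, and their counts of calls are read beside 43.7% of all genes, 15.9% higher in luteal and 27.8% higher in follicular ovaries. Called were 100% of the luteal cell and smooth muscle markers, 88.9% of the endothelium, 70% of the stroma, 60% of the theca cell, 58.3% of the granulosa cell, 55.6% of the oocyte and 14.3% of the blood and immune markers. The 9 luteal cell markers summed to between 6367 and 8674 FPKM in luteal ovaries and to between 211 and 286 in follicular ovaries, and 8 of 9 were higher in luteal ovaries. STAR, which brings cholesterol into mitochondria, was at 2651 ± 507 and 16.6 ± 5.58, and CYP11A1, listed as LOC102173131, at 2495 ± 262 and 87.0 ± 19.4 (SD, n = 5 per phase). Endothelium markers summed to between 270 and 346 FPKM in luteal ovaries and to between 158 and 189 in follicular ovaries, with 8 of 9 higher in luteal ovaries, among them KDR (log2 fold change 1.59, limma adjusted p = 3.43e-05) and EMCN (0.49, limma adjusted p = 0.0170).

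Smooth muscle markers summed to between 577 and 1053 FPKM in luteal ovaries and to between 1312 and 1673 in follicular ovaries, and all 7 were lower in luteal ovaries, with ACTA2 at -0.81 and TAGLN at -0.66 on the log2 scale (limma adjusted p = 0.00177 and 0.00548). Of 12 granulosa cell markers, 6 were lower and 1 was higher in luteal ovaries, and their sum ran from 337 to 1212 FPKM in luteal ovaries and from 505 to 1886 in follicular ovaries. Its most abundant genes, SERPINE2 and INHA, were not called (log2 fold change -0.71 and -1.04, limma adjusted p = 0.105 and 0.149). Both were called without luteal phase ovary 1 (adjusted p = 0.0245 and 0.0373) and without follicular phase ovary 3 (0.0377 and 0.0452). Of the 5 theca cell markers 2 were lower and 1 higher, with a sum of 140 to 188 FPKM in luteal ovaries and 175 to 253 in follicular ovaries. INSL3 fell by 2.42 on the log2 scale (limma adjusted p = 9.81e-05), and LHCGR, which luteal cells also use, rose by 2.87 (limma adjusted p = 5.95e-07).

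Stroma markers were called in both directions. Of 10, 3 were higher in luteal ovaries, among them COL3A1 (log2 fold change 0.75, limma adjusted p = 0.00488), and 4 were lower, while DCN was at 944 ± 182 and 1064 ± 141 and was not called (-0.18, limma adjusted p = 0.335). DCN turned to 0.03 after quantile normalization. The sum of this list, in which the most abundant genes weigh most, ran from 3450 to 5783 FPKM in luteal ovaries and from 2758 to 3894 in follicular ovaries. Its median log2 fold change was -0.17, beside -0.14 for all genes. Of 7 blood and immune markers, 1 was called, CSF1R, higher in luteal ovaries (0.95, limma adjusted p = 0.00998), PTPRC was not (0.17, limma adjusted p = 0.512; without follicular phase ovary 5, 0.36, adjusted p = 0.0374), and the sums were 51.5 to 59.8 and 30.2 to 66.0 FPKM. Of 9 oocyte markers, 5 were lower in luteal ovaries, ZP3 among them (-1.24, limma adjusted p = 0.0152), FIGLA was not called (-1.21, limma adjusted p = 0.0507; called without luteal phase ovary 3 or follicular phase ovary 2 or 4, adjusted p = 0.0343 to 0.0371), and the sums were 8.65 to 20.3 and 16.7 to 48.2 FPKM. The part of these shifts in the differences of the IGF axis was not tested.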

How the data were processed

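RNA of 10 whole ovaries, 5 per phase, was measured by RNA sequencing. The deposited FPKM of each transcript in each ovary came from Cuffdiff, after the authors had used HISAT2 for alignment of paired-end reads and StringTie for assembly, without pooling. Genome build and reads per ovary are not given in the sources used here, so no counting interval is given.

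FPKM of protein-coding transcripts were summed per symbol, and log2(FPKM + 0.1) was tested with limma 3.58.1 (lmFit, eBayes with trend) in R 4.3.3. The code had first been tested on the values of these ovaries with the phase difference removed and known shifts added. Other steps used Python 3.11.15, numpy 2.4.6 and pandas 2.3.3. Groups were taken from the sample titles. The members, lists and tests were chosen with earlier results of these data known. Besides the members and 14 genes chosen after their values were seen (IGFBP1, INSRR, IGFBP7, STC1, SOCS1, CISH, IRS1, PAPPA2, IGF2BP1, IGF2BP2, IGF2BP3, IGFBPL1, SOCS2 and IGFALS), genes were named by rule: the 3 calls with the largest change per direction and pathway list among those without overlap, the 2 most abundant genes per marker list, and the nearest gene per member, symbols starting with LOC left out. Transcripts of members were named from a mean of 0.1 FPKM in a phase. Of the listed symbols, 4 (STAT5A, HSD3B1, CD163 and OOEP) were not analysed here and 2 (CYP11A1 and CYP17A1) were matched through RefSeq synonyms. The labels name no batch. Alternatives were other pseudocounts (1 and 0.01), other filters (none, or 0.5 FPKM), scaling (common median, quantile, TPM), eBayes without trend, a replicate block, a threshold of 0.01 and leaving out each ovary. Overlap of the phases in TPM and with a common median was added after seeing the data.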

Additional observations from a re-analysis of the deposited data

Results flagged for a closer look

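Among 116 groups of 5 ovaries (the FPKM of a member, of a gene named by rule or of 1 of the 14 genes chosen after their values were seen, or a ratio, in 1 phase), 10 had an ovary whose gap to the nearest other exceeded 0.71 of the whole range, Dixon's critical value; chance gives about 1 in 20. Among the members, luteal phase ovary 3 stood apart for IGF2, at 10.5 FPKM against 4.95 to 6.50, and for IGF2R, at 37.2 against 21.3 to 25.5. Follicular phase ovary 2 stood apart for IGF1R, at 6.45 against 8.82 to 9.58, for IGF2R, at 15.3 against 21.4 to 22.8, and for IGFBP3, at 34.5 against 58.2 to 67.2. The ratio of IGF1R to IGF2R was 0.397 in follicular phase ovary 5 against 0.417 to 0.425 in the others. Follicular phase ovary 5 was also apart for PTPRC, at 16.7 FPKM against 7.09 to 9.32, and for FIGLA, at 13.0 against 2.25 to 4.59. Luteal phase ovary 1 was apart for INSRR, at 0.863 FPKM against 0.139 to 0.312, and follicular phase ovary 2 for SOCS2, at 28.8 against 9.32 to 13.5.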

How the results depend on the processing

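IGF1R and IGFBP5 were called under all alternatives. The count of called members, 5, fell to 2 without a filter, with eBayes without trend and at an adjusted p under 0.01, and leaving out each ovary gave 2 to 6. At 0.01, calls fell to 4027 of all genes and to 8 of the downstream list. Leave-one-out counts ran from 5488 to 7008 for all genes. The log2 difference for IGFBP5 to IGFBP3 ran from -0.64 to -0.45 over single omissions, that for IGF1R to IGF2R from -1.11 to -0.91, called in all 10, and that for IGF2 to IGF1 from -0.017 (reversed, without luteal phase ovary 3) to 0.31. DCN was reversed under quantile normalization, at 0.025. No alternative turned the direction of a member. The labels do not state whether equal replicate numbers pair the ovaries, and the main fit took them as unpaired. Deviations of the 5 same-number pairs correlated at 0.03 to 0.20, with 2 of 5 over 0.1. Of the 10 ovaries, 5 correlated best with their own number. These values do not settle whether the ovaries are paired. With a replicate block 5 members were called, IGFBP3 in place of IGFBP4, and 7020 genes, and SERPINE2 (adjusted p = 0.0126, limma), INHA (0.00794) and FIGLA (0.0434) were called, while IGFBP1 was not (0.0526). With the replicate block the ratios of IGF1R to IGF2R and of IGFBP5 to IGFBP3 kept their differences of -1.02 and -0.56 and were not called (adjusted exact permutation p = 0.104 for each), where 0.0625 is the smallest unadjusted p. Without read counts, precision rests on the spread between ovaries.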

Other observations

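Genes of the axis, described here after their values were seen, at the lower end of expression were PAPPA2, IGFBPL1 and IGF2BP1, which did not pass the filter. PAPPA2, a relative of PAPPA that cleaves IGFBP5, ranged from 0.00573 to 0.0410 FPKM in luteal ovaries and reached 0.0994 in follicular ovaries, where 1 ovary was listed at 0. IGF2BP2 and IGF2BP3, which bind IGF2 messenger RNA, were near 1 FPKM in each phase and were not called (limma adjusted p = 0.0549 and 0.243), although IGF2BP2 was called, higher in luteal ovaries, under 5 of 19 alternatives. IGFALS, the liver protein that stabilises the complex of IGF and IGFBP3 in blood, was at 0.478 ± 0.127 FPKM in luteal ovaries and 0.721 ± 0.264 in follicular ovaries (SD, n = 5 per phase; limma adjusted p = 0.152). Without follicular phase ovary 2 it was called, lower in luteal ovaries (log2 fold change -0.64, limma adjusted p = 0.0431).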
